A study of Mus musculus with 14 samples.

Results

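Cells meet a shortage of amino acids, a virus, a lack of haem or misfolded protein in the endoplasmic reticulum (ER) with a shared brake on translation, the integrated stress response. Kinases phosphorylate the initiation factor eIF2, general translation slows, and the transcription factor ATF4 is translated all the more and switches on genes for amino acid supply. The unfolded protein response adds the ER sensors IRE1 and ATF6, which act through the transcription factors XBP1 and cleaved ATF6 on chaperones and on the degradation of ER proteins. Secreting and fast-growing cells, such as those of the developing brain, use many of these genes without any injury. The 10 genes described here are *Atf4*, *Ddit3*, *Trib3*, *Asns*, *Chac1*, *Sesn2*, *Psat1*, *Hspa5*, *Xbp1* and *Herpud1*, out of 41934 genes in each deposited table. They were chosen by symbol as a known set of this pathway. *Ddit3* has 2 entries, and the entry with the higher mean was used. The other entry was at 0 at both ages.

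RNA was sequenced from whole brains of single male mouse fetuses on the C57BL/6J background. At E13.5 there were 4 Dio3+/+ and 2 Dio3-/- fetuses, and at E18.5 there were 3 Dio3+/+ and 5 Dio3-/- fetuses. *Dio3* encodes the type 3 deiodinase, which inactivates thyroid hormone, and the study asked how its loss changes gene expression in the fetal brain. The mutation carried by Dio3-/- mice abolishes the enzyme but leaves the mRNA detectable, so that the RNA level of *Dio3* is not a check of the genotype. Littermates came from matings of heterozygous parents, so the dams of all groups carried the mutation in 1 copy.

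The values that could be used were the authors' means, 1 per gene and age, taken over all libraries of both genotypes. A mean of this kind has no spread between fetuses, no value for a genotype and no known depth per library, so no test was made and each difference below is a description. The means summed over all genes were 28.6 (E13.5) and 24.6 (E18.5) in units of 1000000 normalized counts. Of the neural markers, all 10 were at 1060.2 or above at both ages, with *Map2* at 58675 and 66708. The 9 markers of liver, muscle, blood, bone, cartilage and skin summed to 19415 at E13.5 and 7242 at E18.5, with *Col2a1*, a cartilage collagen, at 5728 and 424. The epidermal keratin *Krt5* was at 9.62 and 4.06, and the embryonic globin *Hbb-bh1* was at 298 and 0.132. *Dio3* had a mean normalized count of 99.0 at E13.5 and 129 at E18.5. By qPCR, the paper reports that *Dio3* fell between these ages in wild-type brains. It also reports more *Dio3* mRNA in Dio3-/- than in Dio3+/+ brains at both ages. Dio3-/- fetuses made up 33.3% of the libraries at E13.5 and 62.5% at E18.5. The pooled means of *Dio3* therefore do not show its change with age within a genotype.

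Because the pathway works through DNA elements beside its genes, the promoters were read first. RefSeq promoters (GRCm38.p6) of 250 bases before and 50 bases after the transcript start were found for all 10 genes, 11 in all, since *Psat1* has 2. The C/EBP-ATF response element (CARE), bound by ATF4 with a partner, was searched as TGATGNAA. The ER stress response element (ERSE), bound by ATF6 with the factor NF-Y, was searched as CCAAT, 9 bases of any kind and CCACG. ERSE-II was searched as ATTGG, 1 base of any kind and CCACG. The core of the unfolded protein response element was searched as TGACGTGG, and the cyclic AMP response element as TGACGTCA. Each of the 5 was searched on both strands, and no match in these 11 promoters overlapped a match of another motif. A match is only a string of letters in a window of 300 bases, and its absence says nothing about the factor.

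Of the 10 genes, 5 held a match of any of the 5 motifs and 5 (*Atf4*, *Ddit3*, *Sesn2*, *Psat1*, *Xbp1*) held none. Shares over all genes were counted for each motif alone. CARE was found in *Asns*, *Chac1*, *Herpud1* and *Trib3*, against 4.51% of the 27025 genes with a promoter (3.97% of 32851 promoters). ERSE was found in *Hspa5*, against 0.137% of those genes. ERSE-II was found in *Herpud1*, against 0.0444% of them. The unfolded protein response core and the cyclic AMP element were found in 0 of the 10, against 0.714% and 2.03% of those genes. The 10 genes were chosen as a known set of this pathway and are partly known for such elements. The matches are therefore a description, and their distance to these shares tests nothing. The stretches that hold these matches are printed below 5′ to 3′ on the strand of the gene. Their letters match elements through which ATF4 and ATF6 are known to act, and binding was not measured here. Capitals mark the match. A match of CARE on the opposite strand reads TTGCATCA or TTACATCA.
Asns, chr6:7693214-7693243, minus strand: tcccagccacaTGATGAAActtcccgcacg
Chac1, chr2:119350992-119351116, plus strand: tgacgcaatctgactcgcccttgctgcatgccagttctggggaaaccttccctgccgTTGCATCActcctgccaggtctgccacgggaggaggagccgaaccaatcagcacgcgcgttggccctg
Herpud1, chr8:94386297-94386428, plus strand: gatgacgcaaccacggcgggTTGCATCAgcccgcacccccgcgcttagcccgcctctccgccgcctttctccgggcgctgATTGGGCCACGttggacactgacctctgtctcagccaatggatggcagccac
Trib3, chr2:152344028-152344057, minus strand: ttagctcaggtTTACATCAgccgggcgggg
Hspa5, chr2:34772020-34772048, plus strand: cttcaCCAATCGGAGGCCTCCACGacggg

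The match lay close to the start in *Asns*, from -23 to -16, and farther away in *Chac1*, from -193 to -186. In *Herpud1* the CARE match began at -112 and the ERSE-II match at -52, so that this gene alone of the 10 held matches of 2 motifs. The ERSE of *Hspa5* spanned -65 to -47. In *Trib3* the match lay from 15 to 22 after the RefSeq start. GENCODE places the start of *Trib3* at another base, and there the nearest base of the match lies 7 bases before the start. The GENCODE starts of *Asns* and *Hspa5* lie farther upstream, and there the matches lie inside the gene, 22 and 55 bases after its first base.

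**Figure D1:**
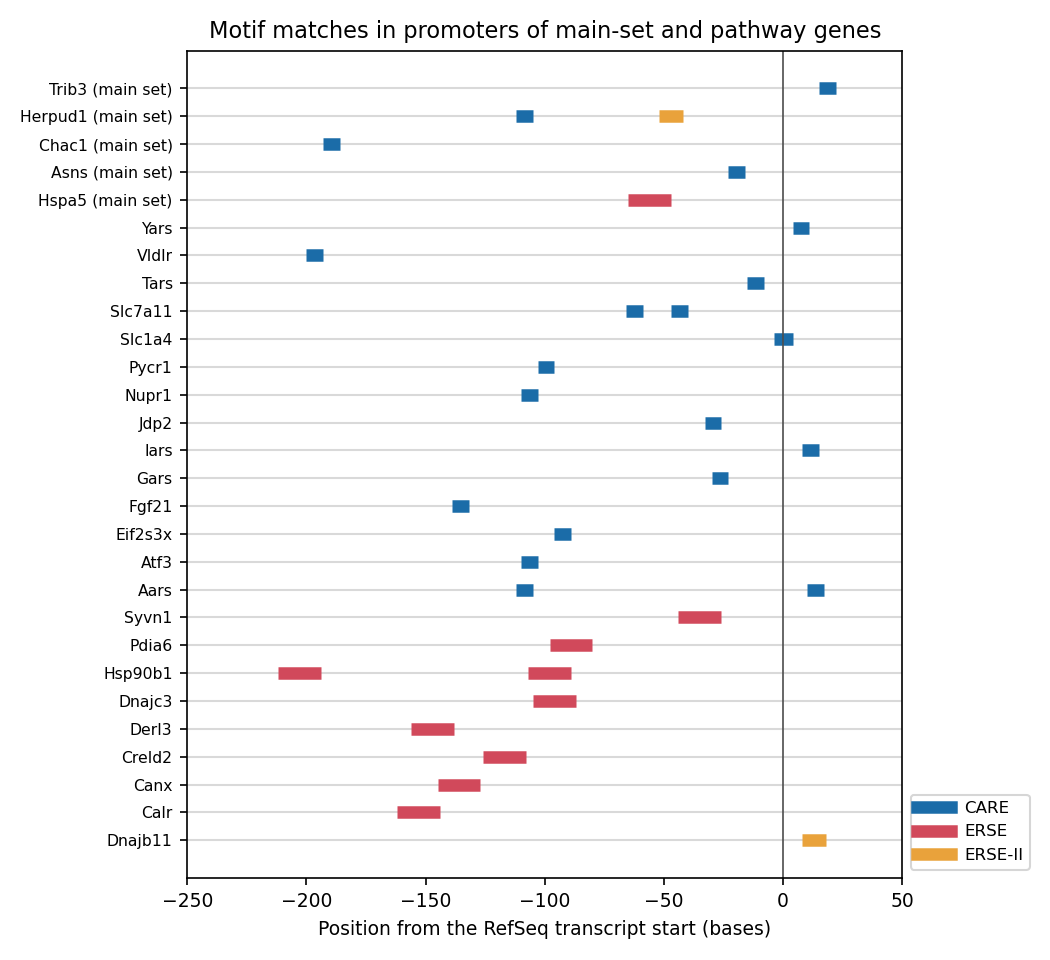
Letter matches of CARE (blue), ERSE (red) and ERSE-II (orange) by position from the RefSeq transcript start in bases, for the 5 genes of the main set with a match and for the pathway genes with a match. In the main set 4 genes hold CARE, *Hspa5* holds ERSE and *Herpud1* holds CARE and ERSE-II.

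The other genes of the pathway were taken from 10 lists with 92 genes, of which 73 had a promoter in the table. ERSE was found in 8 of the 73 genes (11.0%), against 0.137% of all genes with a promoter. Of these 8 genes, 6 are ER chaperones or folding enzymes, out of 12 of that list with a promoter, and the other two act in ER-associated degradation. Their matches are shown in the orientation of the motif, like that of *Hspa5* above, with capitals for the letters of the whole match. Each position is the end of the match that lies farther upstream. The matches of *Calr*, *Creld2* and *Derl3*, and that of *Hsp90b1* at -107, lie on the opposite strand. There the strand of the gene reads the reverse complement of the letters shown.
Hsp90b1, from -212: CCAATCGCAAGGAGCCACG
Hsp90b1, from -107: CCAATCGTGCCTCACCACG
Calr, from -162: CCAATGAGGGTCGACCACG
Canx, from -145: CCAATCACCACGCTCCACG
Creld2, from -126: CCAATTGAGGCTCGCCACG
Dnajc3, from -105: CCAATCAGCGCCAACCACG
Pdia6, from -98: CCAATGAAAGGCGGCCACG
Derl3, from -156: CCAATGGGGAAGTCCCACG
Syvn1, from -44: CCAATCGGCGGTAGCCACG

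CARE was found in 14 of the 73 pathway genes (19.2%), against 4.51% of all genes with a promoter. Among them were 5 of the 8 aminoacyl-tRNA synthetases with a promoter in the table (*Aars*, *Gars*, *Iars*, *Tars*, *Yars*), and *Aars* and *Slc7a11*, the cystine transporter, held 2 matches each. ERSE-II was found in *Dnajb11* alone among the lists (1.37% of the 73 genes, against 0.0444% of all genes with a promoter). Only *Ube2j1* and *Vcp* held the unfolded protein response core (2.74%, against 0.714%). The cyclic AMP element was found in *Ppp1r15a* alone (1.37%), below its share of 2.03% over all genes. The lists were drawn up from knowledge of this pathway, so that these shares describe a set partly known for such elements.

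The 10 genes covered a wide range of levels. Levels of different genes were compared per kb of summed exon length. The highest gene, *Hspa5*, stood 261-fold above the lowest, *Trib3*, at E13.5 and 140.3-fold above it at E18.5. At E13.5, 7 of the 10 lay above the median of 98.8 counts per kb of all genes with a mean of at least 10, and at E18.5, 6 lay above the median of 85.8. From the highest to the lowest, the order at E13.5 was *Hspa5*, *Atf4*, *Psat1*, *Xbp1*, *Herpud1*, *Asns*, *Ddit3*, *Sesn2*, *Chac1* and *Trib3*. At E18.5 *Psat1* moved from the third to the fifth place and *Asns* from the sixth to the fourth. *Hspa5* and *Atf4* came first at both ages, and *Ddit3*, *Sesn2*, *Chac1* and *Trib3* came last. Without values per fetus it cannot be said which neighbours in this order differ beyond their spread.

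**Figure D2:**
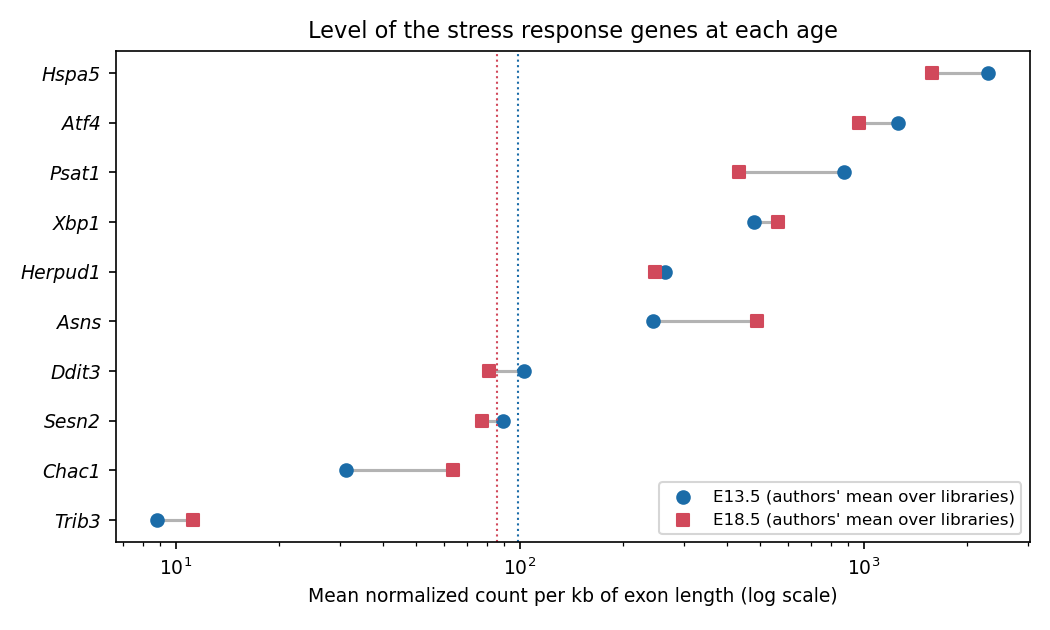
Mean normalized count per kb of exon length (log scale) of the 10 stress response genes at E13.5 (blue circles) and E18.5 (red squares), each the authors' mean over all libraries of the age, with dotted lines at the median of all genes with a mean of at least 10. The levels are not scaled between the ages. On this axis the largest differences are those of *Asns* and *Chac1*, higher at E18.5, and of *Psat1*, lower. The smallest are those of *Herpud1* and *Sesn2*.

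For levels at the 2 ages, which the authors normalized separately, each mean was divided by the sum of all means of its age, which is called the scaled level here. On this scale the median log2 ratio of E18.5 to E13.5 was -0.07 over 17794 genes with a mean of at least 10 at both ages, and on the counts as deposited it was -0.28. Dio3-/- fetuses made up 33.3% of the libraries at E13.5 and 62.5% at E18.5, so that age and genotype cannot be told apart in these ratios. In whole brains, moreover, fewer cells of a type and less RNA per cell cannot be told apart. Of all 17794 genes, 11.1% were 2-fold or more higher at E18.5 and 6.36% were 2-fold or more lower. Of the 10 stress response genes, 2 were 2-fold or more higher and 0 were 2-fold or more lower, and a set of 10 is too small to read anything from its distance to those shares. The log2 ratios of the 10 genes ran from -0.79 for *Psat1* to 1.25 for *Chac1*. Their median log2 ratio was 0.07, and -0.15 on the counts as deposited.

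**Figure D3:**
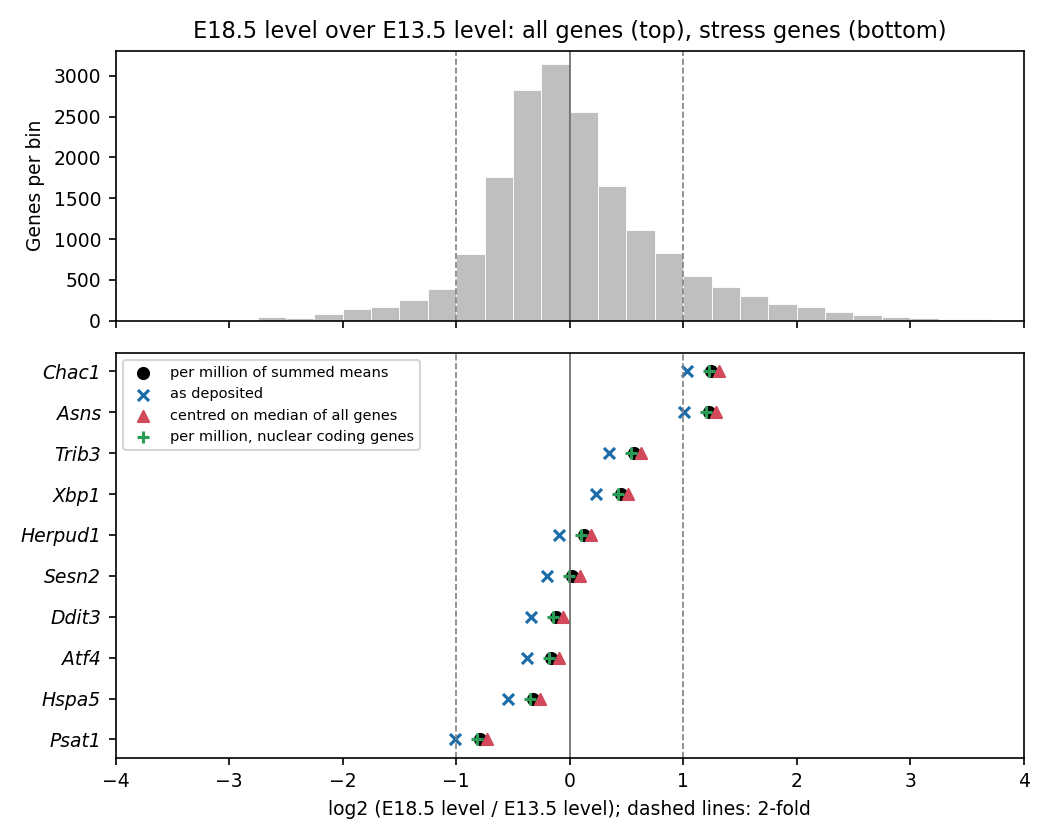
Top, number of genes per bin of 0.25 of the log2 ratio of the E18.5 level to the E13.5 level, shown from -4 to 4; bottom, the 10 stress response genes under 4 scalings, with dashed lines at 2-fold. *Chac1* and *Asns* lie beyond 2-fold under each scaling, and *Psat1* only on the counts as deposited.

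*Atf4* (ENSMUSG00000042406.8, GRCm38 chromosome 15 from 80255184 to 80257541, as all positions here) encodes the factor at the centre of the integrated stress response. The authors' mean normalized count was 2961 at E13.5 and 2277 at E18.5, higher than 87.0% and 85.4% of the genes with a mean of at least 10. The log2 ratio of the ages was -0.16, close to that of the median gene. ATF4 is controlled mainly at translation, through short reading frames ahead of its own, which an mRNA level does not show. *Ddit3* (ENSMUSG00000025408.15, chromosome 10 from 127290774 to 127296288) encodes CHOP, a factor induced late in the response and linked to cell death. Its mean was 177 at E13.5 and 139.5 at E18.5, a log2 ratio of -0.12. Of the exon bases of *Ddit3*, 10.9% are shared with its second entry and with *Mars* and *Gm4189* on the opposite strand, where reads could be lost or misassigned.

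*Trib3* and *Chac1*, known as sensitive readouts of ATF4 and CHOP activity, were the lowest of the 10. *Trib3* (ENSMUSG00000032715.9, chromosome 2 from 152337422 to 152344032) encodes a pseudokinase that dampens CHOP and ATF4. Its mean was 18.7 at E13.5 and 23.9 at E18.5, above 9.68% and 13.9% of the genes with a mean of at least 10. Summed over libraries, these means amount to 112 and 191 normalized counts, the least of the set. *Chac1* (ENSMUSG00000027313.3, chromosome 2 from 119351229 to 119354381) encodes an enzyme that degrades glutathione. Its mean was 51.1 at E13.5 and 104 at E18.5, a scaled level 2.38-fold higher at E18.5 and above the ratio of 91.9% of all genes. *Sesn2* (ENSMUSG00000028893.8, chromosome 4 from 132492032 to 132510501) encodes sestrin 2, a leucine sensor that restrains mTORC1, and had 309.6 and 270.3 counts. Its log2 ratio was 0.02 for scaled levels and -0.20 on the counts as deposited.

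The 2 amino acid enzymes of the set had ratios of opposite sign between the ages. *Asns* (ENSMUSG00000029752.12, chromosome 6 from 7675169 to 7693254) encodes asparagine synthetase, a classic ATF4 target. Its mean was 665 at E13.5 and 1334 at E18.5, a scaled level 2.33-fold higher at E18.5 and above the ratio of 91.6% of all genes. *Psat1* (ENSMUSG00000024640.9, chromosome 19 from 15904678 to 15947337) encodes phosphoserine aminotransferase, the second step of serine synthesis. Its mean was 3714 at E13.5 and 1843 at E18.5, a scaled level 1.73-fold higher at E13.5 with only 9.86% of genes below its ratio. On the counts as deposited its log2 ratio was -1.01, just past 2-fold.

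The ER branch was represented by *Hspa5*, *Xbp1* and *Herpud1*. *Hspa5* (ENSMUSG00000026864.13, chromosome 2 from 34771970 to 34777547) encodes BiP, the main chaperone of the ER, which also holds the ER sensors inactive. With 9722 counts at E13.5 and 6663 at E18.5 it lay above 98.0% and 96.7% of the genes with a mean of at least 10, and its log2 ratio was -0.33. *Xbp1* (ENSMUSG00000020484.18, chromosome 11 from 5520659 to 5525893) encodes the factor made after IRE1 cuts an intron out of its mRNA. Its mean was 1554 at E13.5 and 1826 at E18.5, a log2 ratio of 0.45. A count per gene adds up cut and uncut mRNA, so the activity of IRE1 cannot be read from it. *Herpud1* (ENSMUSG00000031770.16, chromosome 8 from 94386438 to 94395377) encodes an ER membrane protein of the degradation machinery. Its mean was 616 at E13.5 and 577 at E18.5. The log2 ratio was 0.12 for scaled levels and -0.09 on the counts as deposited.

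The other pathway genes were described by list. Of the 92 genes, 88 had a mean of at least 10 at both ages. Of these 88, 8 (9.09%) were 2-fold or more higher at E18.5, against 11.1% of all 17794 genes. In the other direction 1 (1.14%) was 2-fold or more lower, against 6.36%. On the counts as deposited 6 were higher and 3 lower by that size. Centred on the median gene, 8 were higher and 0 lower. The 4 genes below that mean were *Batf2*, *Fgf21*, *Gdf15* and *Adm2*. *Fgf21* and *Gdf15* encode secreted stress hormones. *Fgf21* had 0.145 counts at E13.5 and 0.961 at E18.5, *Gdf15* had 1.38 and 2.98, and *Adm2* had 0.779 at E13.5 and was listed at 0 at E18.5. No list median changed sign under 3 other scalings of the ages. Counts of positive and negative ratios by list are to be read beside all 17794 genes, of which 45.6% had a ratio above 0. Of the 88 pathway genes, 29 had a ratio above 0.

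All 4 eIF2 kinases had negative log2 ratios, from -0.26 for *Eif2ak2* (PKR) to -0.09 for *Eif2ak1* (HRI), against -0.07 for the median gene. *Eif2ak1* was the highest of the 4, with 314 counts per kb at E13.5 and 254 at E18.5. *Eif2ak2* was the lowest, with 56.1 and 40.3. Among the 10 genes of eIF2, its exchange factor eIF2B and the eIF2 phosphatase, 9 had negative ratios, and the median was -0.20. With the ratios centred on the median gene, 7 of the 10 were negative. The lowest ratio was that of *Eif2b2*, a subunit of eIF2B, with 813 counts at E13.5, 429.8 at E18.5 and a log2 ratio of -0.70. Another subunit, *Eif2b5*, had a ratio of -0.45 and *Ppp1r15b* one of -0.42. Here *Ppp1r15b*, the constitutive phosphatase subunit, was highest at both ages with 692 and 445 counts per kb. The lowest were *Eif2b3*, with 71.3 counts per kb at E13.5 and 58.8 at E18.5, and *Ppp1r15a*, the stress-induced subunit also called GADD34, with 73.0 and 64.2.

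Serine, proline and one-carbon enzymes and then amino acid transporters are described next, as lists too small to read a difference from. Of the 8 enzymes, 7 had negative ratios with a median of -0.45, and 6 had when centred on the median gene. *Phgdh*, the first step of serine synthesis, had 927 counts at E13.5 and 414 at E18.5, a log2 ratio of -0.95. On the counts as deposited the ratio of *Phgdh* was -1.16, past 2-fold like the -1.01 of *Psat1*. *Psph*, the last step, had a ratio of -0.29. *Aldh18a1*, of proline synthesis, was the highest of the list, with 696 counts per kb at E13.5 and 369 at E18.5. *Cbs*, of cysteine synthesis, was the exception, with 84.0 counts at E13.5, 308 at E18.5 and a log2 ratio of 2.09. It was the lowest of the list per kb at E13.5 with 11.2, and *Cth*, the next step to cysteine, was the lowest at E18.5 with 13.6.

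Of the 9 transporters, 7 had positive ratios of scaled levels (6 on the counts as deposited). At E18.5, 4 were 2-fold or more higher, against 11.1% of all genes, and a list of 9 is too small to read anything from this. *Slc7a3*, a carrier of cationic amino acids, had 23.1 counts at E13.5 and 229 at E18.5, the largest log2 ratio of all list genes at 3.53, and was the lowest of the list per kb at E13.5. *Slc7a11*, which exchanges cystine for glutamate, had 465 and 1225 counts and a ratio of 1.62. *Slc6a9*, a glycine transporter, had a ratio of 1.26 and *Slc1a4*, a carrier of neutral amino acids, one of 1.01, which was 0.79 on the counts as deposited. *Slc38a2*, a carrier of neutral amino acids, was the highest of the list per kb at E13.5 with 1496, and *Slc7a5*, which carries large neutral amino acids and thyroid hormone, at E18.5 with 936. *Slc1a5* was the lowest at E18.5, with 55.8.

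The 12 aminoacyl-tRNA synthetases ran from -0.52 for *Iars* to 0.28 for *Nars*, with a median of -0.11 that was close to that of all genes. *Gars* was the highest at both ages with 1456 and 1172 counts per kb, and *Cars* was the lowest with 164 and 151. Of the bZIP partners and related regulators, *Nupr1* had 18.4 counts at E13.5 and 52.6 at E18.5, with a ratio of 1.73, and *Cebpb* had 46.7 and 81.1, with a ratio of 1.02 that was 0.80 on the counts as deposited. *Cebpg*, a partner of ATF4, was the highest of them per kb with 355 and 214, and *Batf2* was the lowest with 0.369 and 1.14. *Atf3*, a factor induced by acute stress, had 23.3 and 23.6 counts. Among other ATF4 targets *Stc2*, a secreted glycoprotein, had 68.9 and 172 counts and a ratio of 1.54, whereas *Eif4ebp1*, a brake on translation, had 155 and 69.5 and a ratio of -0.94, which was -1.15 on the counts as deposited. *Sqstm1*, an autophagy receptor, was the highest there, with 1178 and 1330 counts per kb.

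**Figure D4:**
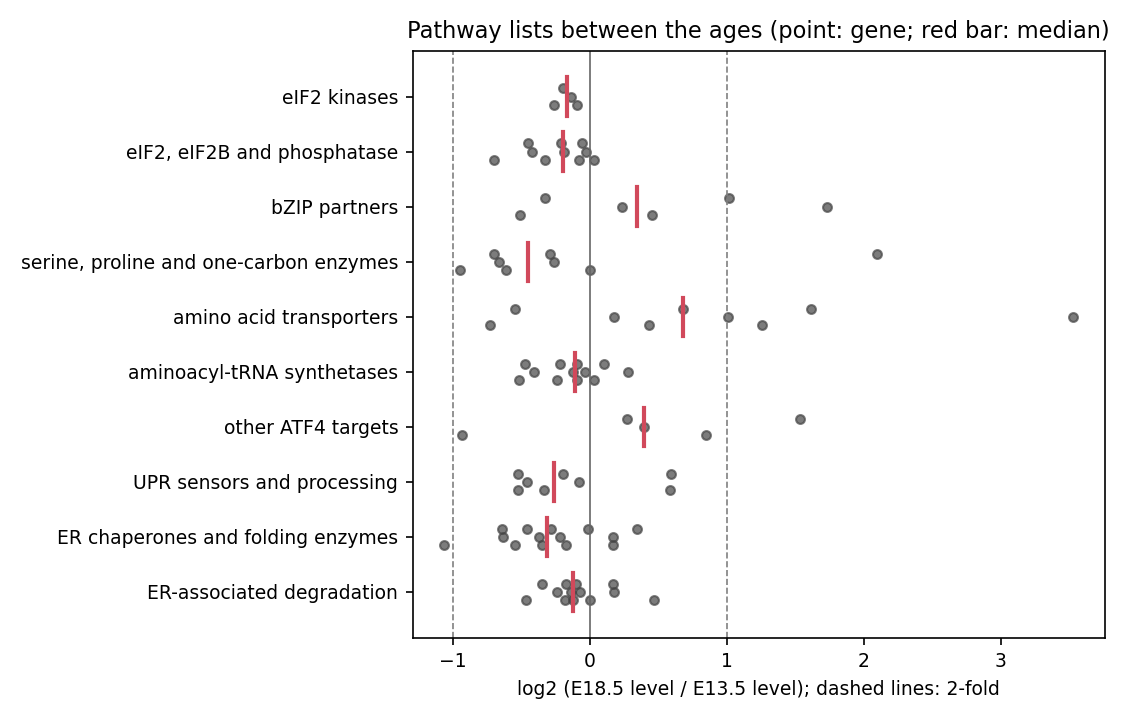
Log2 ratio of the E18.5 level to the E13.5 level for each pathway gene with a mean of at least 10 at both ages, by list, with the list median as a red bar and dashed lines at 2-fold. Medians run from -0.45 for the serine, proline and one-carbon enzymes to 0.68 for the amino acid transporters.

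ER chaperones and folding enzymes are set here beside *Hspa5*, whose log2 ratio was -0.33. Of the 14 genes, 11 had negative ratios with a median of -0.32, and 10 had when centred on the median gene. All but 1 lay within 2-fold. *Calr* was the highest at both ages, with 4425 counts per kb at E13.5 and 3269 at E18.5. *Sdf2l1*, which assists BiP, had 269.6 counts at E13.5 and 111 at E18.5, and its log2 ratio of -1.06 was the lowest of all list genes (-0.997 when centred on the median gene, just short of 2-fold). It was also the lowest of the list per kb, with 243 and 100.1. *P4hb* and *Pdia4*, both protein disulfide isomerases, each had a ratio of -0.64. *Dnajb9*, a co-chaperone known as a target of XBP1, had the highest ratio of the list at 0.34. The summed markers of other tissues were also lower at E18.5. The collagen *Col1a1* made up most of that sum, with 10662 counts at E13.5 and 4986 at E18.5, whereas the muscle actin *Acta1* was higher at E18.5, with 48.7 and 109. The progenitor marker *Nes* had 13679 and 2548. Their part in the chaperone levels was not tested.

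The 8 sensor and processing genes had a median of -0.26, with ratios from -0.53 to 0.59. *Rtcb*, the ligase that rejoins the cut *Xbp1* mRNA, was the highest per kb with 913 and 621. *Ern2*, the IRE1 of mucosal epithelia, was the lowest with 10.02 and 12.97, and its ratio was 0.59. *Mbtps2*, the site-2 protease that releases ATF6, also had a ratio of 0.59. *Ern1*, the IRE1 found in most cells, had a ratio of -0.53. The 13 genes of ER-associated degradation had a median of -0.12 and ran from -0.46 for *Vcp* to 0.47 for *Ube2j1*. *Os9*, a lectin that recognizes misfolded glycoproteins, was the highest per kb at E13.5 with 1138. *Derl3* was the lowest with 22.9 and 18.04.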

How the data were processed

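Per the labels, the file headers and the study's methods, the authors trimmed the reads with cutadapt 3.1, aligned them with STAR 2.5.3a to GRCm38, removed rRNA and tRNA, counted them per gene of GENCODE VM22 with HTSeq without strand, adjusted the counts between 2 batches (sequencing sites with different library kits) with ComBat-seq and normalized them within each age with DESeq2 1.30.1. The deposited mean normalized count is a signal, the mean over 6 libraries at E13.5 and 8 at E18.5. The deposited tables also hold the authors' fold changes, errors, statistics and p-values for the genotypes, and these were not used. So no genotype comparison and no count test could be made. No table has a column for a single library (0 such columns were left out). Strandless counting can lose or misassign reads of overlapping genes, and the batch adjustment can shift means.

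Percentiles are shares of genes of the age with a mean of at least 10. Ratios use levels per 1000000 of the summed means, and 2-fold is the size counted. Exon lengths come from GENCODE M21 (41897 genes matched, 37 not). *Mars1* is carried as *Mars*. Named are the 10 genes, the highest and lowest of each list per kb, list genes past 2-fold, and others chosen after their values were seen. A gene that the rule would also name is not reported here. The genes and lists were chosen with earlier results of these data known. Functions were tested on simulated data (Python 3.11.15, pandas 2.3.3, numpy 2.4.6). Alternatives were 3 other scalings, other minimum means, levels per kb and a shorter promoter window.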

Additional observations from a re-analysis of the deposited data

How the results depend on the processing

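Of 30 ratios of the 10 genes under 3 other scalings, 26 kept their direction and their side of 2-fold. On the counts as deposited the log2 ratio was -0.20 for *Sesn2* and -0.09 for *Herpud1*, against 0.02 and 0.12 for scaled levels, and for *Psat1* it was -1.01 against -0.79. With the sum over protein-coding genes outside the mitochondrial genome the ratio of *Sesn2* was -0.0027. On the counts as deposited, 1 of the 10 genes was 2-fold or more lower at E18.5 in place of 0, and so were 10.1% of all genes in place of 6.36%. Of the 88 pathway genes, 3 were 2-fold or more lower on the counts as deposited and 0 when centred on the median gene, against 1 for scaled levels. The higher count was 6 on the counts as deposited, 8 when centred and 6 with the protein-coding sum, against 8. These counts by scaling were added after the data were seen. The other counts, shares and median percentiles stayed within 1.5 times of the reported value under the alternatives tried. The median percentile of the 10 genes was 58.6 at E13.5 and 68.2 at E18.5. No paired analysis was possible because the tables hold no value of a single library, and for the same reason no library could be left out. Depth per library is unknown, so that low means such as those of *Trib3* and *Atf3* have no error here.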
